A study of Mus musculus with 12 samples.

Results

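The 10 genes described here encode 7 Toll-like receptors (Tlr1, Tlr2, Tlr3, Tlr4, Tlr5, Tlr7 and Tlr8), the lipopolysaccharide co-receptors Cd14 and Ly96, and the adaptor Myd88. They were chosen by symbol, as 10 of the 55357 Ensembl genes in the count table of a mouse liver RNA-seq study. All 10 passed the filter on low counts, which kept 17358 genes. Livers came from male C57BL/6J mice on chow or on a choline-deficient, amino acid-defined, high-fat diet (CDAHFD) for 6 weeks, 7 weeks old at the start and 13 weeks old at the end. Every animal carried floxed Ppara alleles. The WT groups had no Cre, and the KO groups also carried an AlbuminCre transgene, which deletes Ppara in hepatocytes and leaves the gene in the other cells of the liver. The labels gave 4 WT chow, 3 WT CDAHFD, 2 KO chow and 3 KO CDAHFD libraries. Whether hepatocyte loss of PPARα and the diet change liver expression alike is the question the design poses, and here it is asked of the genes that sense microbial and tissue-derived ligands.

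Toll-like receptors are membrane proteins of innate immunity. Tlr1, Tlr2, Tlr4 and Tlr5 sit at the cell surface and bind bacterial lipopeptides, lipopolysaccharide or flagellin, whereas Tlr3, Tlr7 and Tlr8 sit in endosomes, where Tlr3 binds double-stranded RNA and Tlr7 binds single-stranded RNA. Cd14 passes lipopolysaccharide to Tlr4, and Ly96, also called MD-2, holds it on the receptor. Myd88 carries the signal of nearly all of these receptors, Tlr3 excepted, to the Irak kinases and on to NF-κB. In liver, Kupffer cells and recruited macrophages are known as main sites of these receptors, and the organ receives gut-derived ligands through the portal vein.

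Total counts ran from 29906785 to 43551003 per library. The hepatocyte markers Alb, Apoa1, Ttr, Hnf4a, Serpina1c and Cps1 summed to 39376 CPM or more in every library, where CPM is the count scaled to TMM-adjusted library size. Ppara was at 96.2 to 238 CPM in WT chow, 59.5 to 75.5 in WT CDAHFD, 14.4 and 38.7 in KO chow and 20.7 to 51.9 in KO CDAHFD. These counts cover the whole gene, so that reads from outside the deleted part and from cells other than hepatocytes are not separated. WT chow replicate 1 stood apart from the other 3 WT chow libraries in several genes described below. It held the highest WT chow value of 8 of the 10 genes, a count that was not made over all genes tested. The results that changed most without this library are given both ways. A score of clock genes, higher where Arntl, Npas2 and Clock exceed Dbp, Nr1d1, Nr1d2, Per2, Per3, Ciart and Tef, also split the WT chow libraries, with 1.88 and 1.49 in replicates 1 and 2 and −1.999 and −2.12 in replicates 3 and 4.

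Promoter sequence is shown for the genes for which it was available after the cut given below. These are Tlr1 and Tlr8, which were among the genes higher in all groups than in WT chow, Tlr2, which varied within WT chow, and Tlr5, which went the other way. The bases come from the RefSeq promoter table on GRCm38.p6, cut to those before the start of the gene in GENCODE as well, which left 245 bases for Tlr1, 91 for Tlr2 and 250 each for Tlr5 and Tlr8. They are written 5′ to 3′ on the strand of the gene, at chr5:64933564-64933808 (minus strand), chr3:83841768-83841858 (minus strand), chr1:182954538-182954787 (plus strand) and chrX:167264330-167264579 (minus strand). Capitals mark matches, on either strand, to GGGNNTTCC (an NF-κB motif), GAGGAA (a PU.1 motif) or TGANTCA (an AP-1 motif), which were picked after the expression values were known.
Tlr1: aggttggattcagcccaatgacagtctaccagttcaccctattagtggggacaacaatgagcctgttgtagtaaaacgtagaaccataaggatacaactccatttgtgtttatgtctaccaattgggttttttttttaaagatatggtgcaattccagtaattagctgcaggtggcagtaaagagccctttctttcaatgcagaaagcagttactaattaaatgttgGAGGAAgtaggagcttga
Tlr2: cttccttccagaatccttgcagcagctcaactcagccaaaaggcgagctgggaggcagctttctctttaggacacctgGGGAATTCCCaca
Tlr8: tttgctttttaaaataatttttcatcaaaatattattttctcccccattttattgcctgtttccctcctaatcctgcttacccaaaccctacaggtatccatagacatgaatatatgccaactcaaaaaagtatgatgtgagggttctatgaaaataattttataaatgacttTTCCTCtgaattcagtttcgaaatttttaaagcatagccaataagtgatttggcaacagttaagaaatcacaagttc
Tlr5: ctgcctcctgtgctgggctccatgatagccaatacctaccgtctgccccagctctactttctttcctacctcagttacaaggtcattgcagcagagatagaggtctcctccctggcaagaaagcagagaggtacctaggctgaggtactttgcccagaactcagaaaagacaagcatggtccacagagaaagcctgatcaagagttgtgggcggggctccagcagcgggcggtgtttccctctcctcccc
The capitals of Tlr2 are 2 overlapping matches of GGGNNTTCC, 1 on each strand, with first bases at −172 and −171 from the RefSeq start. Tlr1 held 1 match of GAGGAA at −23, and Tlr8 held 1 on the opposite strand, read here as its reverse complement, at −77. The Tlr5 stretch held none of the 3 motifs. Among 32851 promoters of 250 bases, 4.98% held GGGNNTTCC, 23.3% GAGGAA and 6.75% TGANTCA, so each match is a description of letters and not a binding site. The table held 7 entries for 6 of the 10 genes and none for Tlr4, Tlr7, Ly96 and Cd14. Tlr3 and Myd88 had entries but kept no bases before the GENCODE start and are not shown.

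Compared with WT chow, most receptor genes and Cd14 were higher in the livers of all 3 other groups, and Tlr5 was lower in both KO groups. Of the 10 genes, 6 were higher in KO chow (Tlr1, Tlr3, Tlr4, Tlr7, Tlr8 and Cd14) and 1 was lower (Tlr5) at an adjusted p under 0.05 (quasi-likelihood test in edgeR, adjusted by Benjamini-Hochberg over all genes tested). Over all genes tested, 22.0% were called higher and 17.0% lower in that comparison. In WT CDAHFD, 7 were higher (the same 6 and Tlr2) beside 26.1% of all genes, and 3 did not pass, while 25.0% of all genes were called lower. In KO CDAHFD, the 7 genes called in WT CDAHFD were higher beside 26.9% of all genes, and Tlr5 was lower beside 25.4%. The median log2 fold change of the 10 genes was 1.80 with WT CDAHFD, 1.56 with KO CDAHFD and 1.27 with KO chow, where the median of all genes tested was −0.048, −0.040 and 0.0022. The 3 comparisons share the WT chow libraries and are therefore not independent of each other. In bulk liver, fewer cells of a type and less RNA per cell cannot be told apart.

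**Figure D1:**
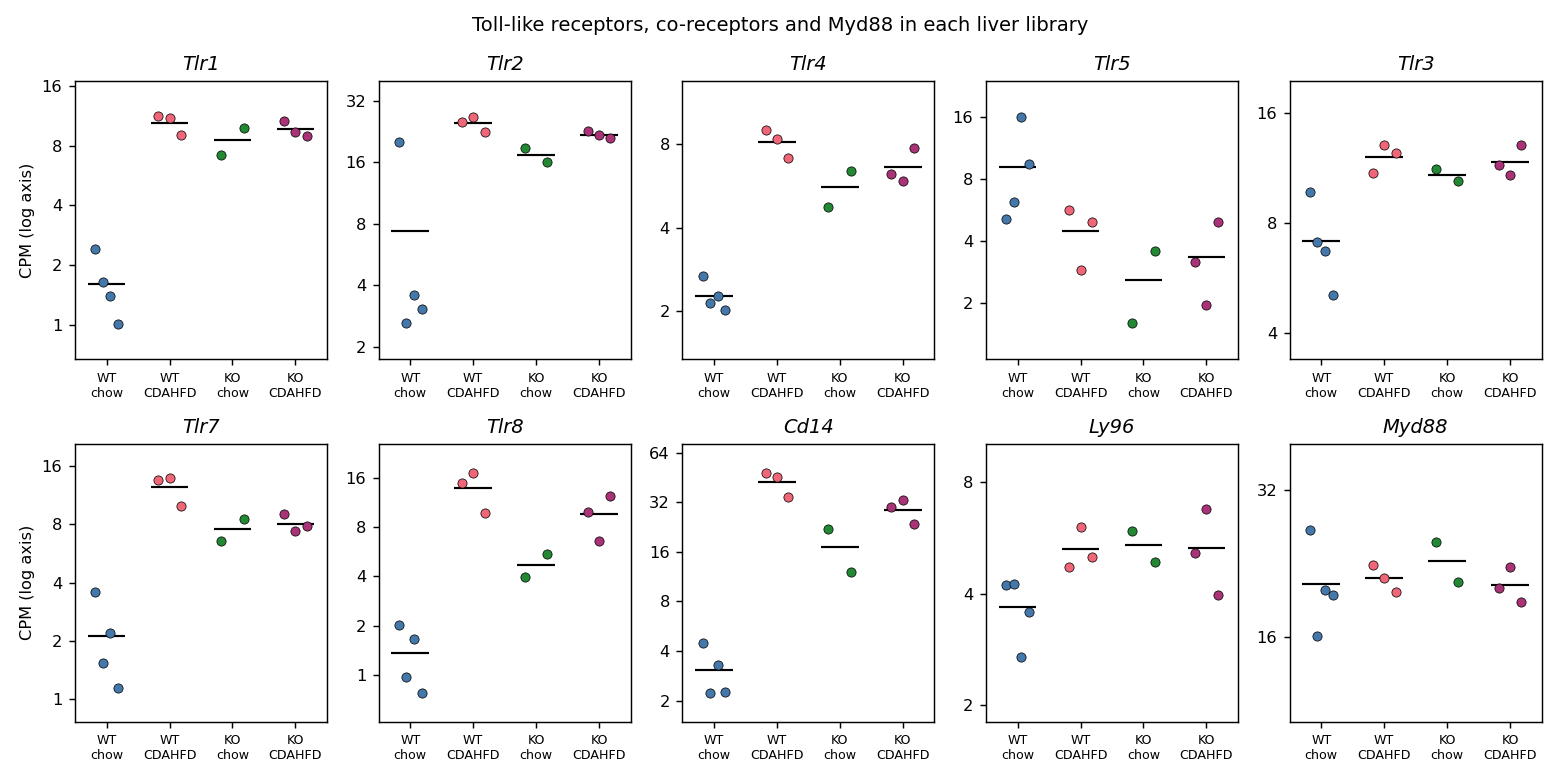
Expression of the 10 genes in each of the 12 libraries, in CPM on a log axis with its own range in each panel, by group on the horizontal axis. Points are libraries and lines are group means. For Tlr1, Tlr3, Tlr4, Tlr7, Tlr8 and Cd14 every WT chow library lies below every library of the other groups, most narrowly for Tlr3. How many of all genes tested separate in this way was not counted. For Tlr2 WT chow replicate 1 lies with the other groups, and Tlr5 has its highest value in WT chow.

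Tlr1 (ENSMUSG00000044827, chr5:64924679-64933563, minus strand), the partner of Tlr2 in sensing triacylated lipopeptides, was at 2.41, 1.64, 1.40 and 1.01 CPM in WT chow. It was at 11.3, 10.99 and 9.07 CPM in WT CDAHFD, at 7.15 and 9.82 in KO chow and at 10.6, 9.36 and 8.92 in KO CDAHFD. No library of the other 3 groups overlapped with WT chow, and those 3 groups overlapped with each other. The fitted log2 fold change against WT chow was 2.69 ± 0.23 for WT CDAHFD (SE, adjusted p = 1.1e-06, edgeR), 2.57 ± 0.23 for KO CDAHFD (adjusted p = 1.5e-06) and 2.39 ± 0.25 for KO chow (adjusted p = 1.1e-05). Tlr1 was thus 6.44-fold, 5.94-fold and 5.23-fold higher.

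Tlr4 (ENSMUSG00000039005, chr4:66827584-66930284, plus strand), the receptor of lipopolysaccharide, had a narrow range in WT chow, with 2.68, 2.14, 2.27 and 2.02 CPM. The libraries of WT CDAHFD were at 8.99, 8.35 and 7.15 CPM, those of KO chow at 4.76 and 6.40, and those of KO CDAHFD at 6.23, 5.88 and 7.75. KO chow lay between WT chow and WT CDAHFD with no overlap with either. Its log2 fold change against WT chow was 1.84 ± 0.17 for WT CDAHFD (adjusted p = 2.5e-06, edgeR), 1.54 ± 0.17 for KO CDAHFD (adjusted p = 1.1e-05) and 1.29 ± 0.19 for KO chow (adjusted p = 0.00019). KO chow against WT CDAHFD was −0.55 ± 0.20 and did not pass (adjusted p = 0.12).

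Tlr2 (ENSMUSG00000027995, chr3:83836272-83841767, minus strand), which pairs with Tlr1 or Tlr6 to sense bacterial lipoproteins, was at 20.1 CPM in WT chow replicate 1 and at 2.61, 3.60 and 3.07 in the other 3 WT chow libraries. WT CDAHFD had 25.3, 26.6 and 22.5 CPM, KO chow 18.7 and 16.0, and KO CDAHFD 22.7, 21.8 and 20.9. Replicate 1 thus lay within the range of KO chow and KO CDAHFD together, while the other WT chow libraries lay far below them. With all libraries, WT CDAHFD was higher by log2 1.76 ± 0.54 (adjusted p = 0.016, edgeR), KO CDAHFD by 1.57 ± 0.54 (adjusted p = 0.027), and the difference of KO chow, 1.24 ± 0.60, did not pass (adjusted p = 0.12). Without WT chow replicate 1 these became 3.02, 2.85 and 2.50, with adjusted p of 4.0e-08, 5.7e-08 and 4.0e-07. The KO CDAHFD call was lost when any 1 of WT chow replicates 2, 3 and 4 or of the KO CDAHFD libraries was left out, with adjusted p from 0.051 to 0.067. DESeq2 gave no adjusted p for Tlr2 in any comparison.

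By Dixon's test at 95%, a further 4 of the 68 pathway genes tested stood apart in the same library. That share is close to what chance alone marks at this level. The count was not made over all genes tested. Lbp, the plasma protein that brings lipopolysaccharide to Cd14, was at 333 CPM in WT chow replicate 1 and at 106 to 115 in the other 3. Saa3, an acute phase apolipoprotein, was at 34.1 against 4.19 to 6.90 CPM. Nfkb2, an NF-κB subunit, was at 37.6 against 8.03 to 11.1 CPM, and Irak3, an inhibitory Irak family member of macrophages, at 3.61 against 1.01 to 1.32. For Lbp this was the highest value of all 12 libraries, and for the other 3 genes it was close to or within the range of the CDAHFD or KO libraries. Others did not, such as the NF-κB subunit Rel, at 7.92 against 8.31 to 11.6 CPM, and the NF-κB inhibitor Nfkbia, at 55.7 against 47.2 to 70.5. The summed neutrophil markers were at 14.6 CPM in that library and at 2.86 to 4.20 in the other 3, and the markers of recruited monocytes and lipid-associated macrophages at 206 against 98.6 to 124. The general macrophage markers, at 333 against 204 to 358 CPM, did not stand apart. Their part in the value of Tlr2 in that library was not tested. Irak3 shares 192 exon bases with Tmbim4 on the opposite strand, whose counts were 8.38 to 33.5 times as many. The part of Tmbim4 in the counts of Irak3 was not tested.

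**Figure D2:**
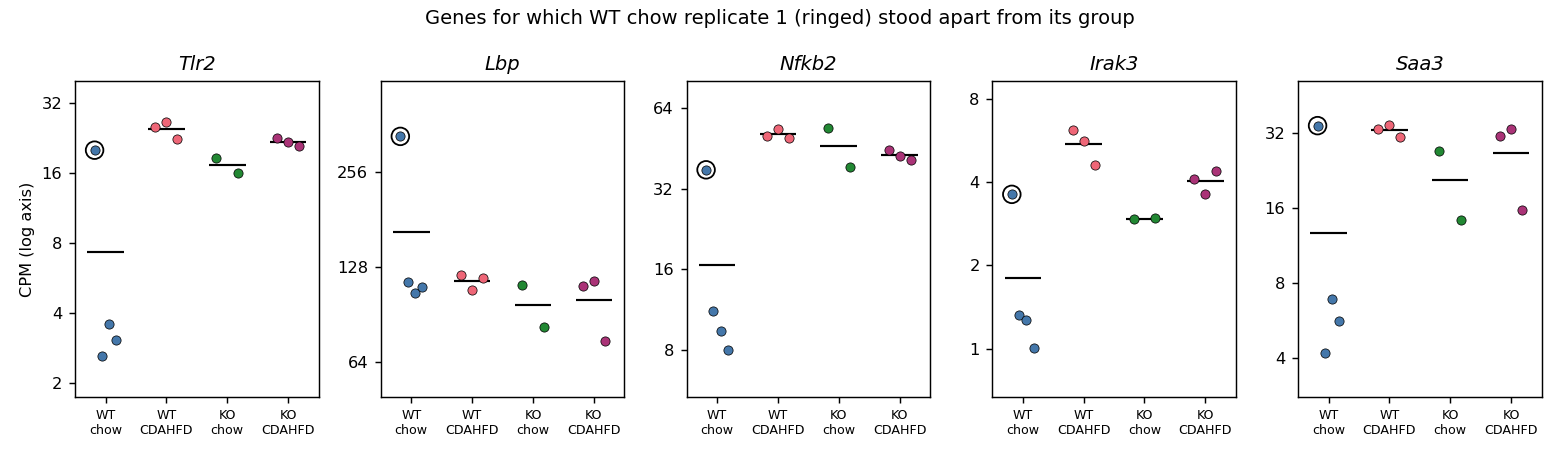
Tlr2, Lbp, Nfkb2, Irak3 and Saa3 in CPM on a log axis, by group. Points are libraries, lines are group means, and the ring marks WT chow replicate 1. The ringed point is at 20.1, 333, 37.6, 3.61 and 34.1 CPM, above the other 3 WT chow libraries in every panel. The genes shown were picked because that library stood apart in them by Dixon's test, which also marks some genes by chance.

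Tlr5 (ENSMUSG00000079164, chr1:182954788-182976044, plus strand), the flagellin receptor, was the only 1 of the 10 genes with a call below WT chow. WT chow had 5.12, 6.17, 15.9 and 9.45 CPM, WT CDAHFD 5.68, 2.87 and 4.92, KO chow 1.60 and 3.59, and KO CDAHFD 3.18, 1.95 and 4.95. Both KO groups lay below every WT chow library, whereas WT CDAHFD overlapped with WT chow through its first replicate. Its log2 difference from WT chow was −1.81 ± 0.53 for KO chow (adjusted p = 0.016, edgeR), −1.44 ± 0.44 for KO CDAHFD (adjusted p = 0.015) and −1.03 ± 0.43 for WT CDAHFD, which did not pass (adjusted p = 0.062). In KO chow Tlr5 was 3.51-fold lower and in KO CDAHFD 2.72-fold lower. The KO chow call was lost without KO chow replicate 1 (−1.33, adjusted p = 0.17). The KO CDAHFD call was lost without WT chow replicate 3 (−0.99, adjusted p = 0.060), without KO CDAHFD replicate 2 (−1.17, adjusted p = 0.065) or when scaled by library size alone (−0.80, adjusted p = 0.13). The WT CDAHFD value became −0.60 without WT chow replicate 3, and passed without WT chow replicate 1 (−1.20, adjusted p = 0.033), without the low-count filter (−0.97, adjusted p = 0.013) and by DESeq2 (−0.98, adjusted p = 0.046). WT chow replicates 3 and 4, with the highest Tlr5 values, had negative clock scores, and so did the library with the most Tlr5 in each KO group, at −0.98 in KO chow replicate 2 and −3.19 in KO CDAHFD replicate 3. With the score as a covariate, the log2 differences from WT chow were −1.67 for KO chow and −1.58 for KO CDAHFD, both called. KO chow was then also called against WT CDAHFD (−1.07, adjusted p = 0.047, edgeR). In the main fit KO chow against WT CDAHFD was −0.78 ± 0.53 and did not pass (adjusted p = 0.39, edgeR). Nor did KO CDAHFD against WT CDAHFD (−0.41 ± 0.46, adjusted p = 0.85), so neither KO group was separated from WT CDAHFD there. The part of the clock phase in the level of Tlr5 was not tested further.

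The endosomal receptors Tlr7 and Tlr8 are neighbours on the X chromosome. Tlr7 (ENSMUSG00000044583, chrX:167304929-167330558, minus strand) was at 3.57, 1.54, 2.20 and 1.15 CPM in WT chow, 13.5, 13.9 and 9.92 in WT CDAHFD, 6.53 and 8.56 in KO chow and 9.02, 7.43 and 7.80 in KO CDAHFD. Its WT CDAHFD libraries lay above all others. WT CDAHFD was higher than WT chow by log2 2.55 ± 0.29 (adjusted p = 1.2e-05, edgeR), KO CDAHFD by 1.93 ± 0.29 (adjusted p = 0.00012) and KO chow by 1.83 ± 0.32 (adjusted p = 0.00059). KO CDAHFD against WT CDAHFD was −0.62 ± 0.29 and did not pass after adjustment (adjusted p = 0.58), although the libraries did not overlap.

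Tlr8 (ENSMUSG00000040522, chrX:167242696-167264329, minus strand), the closest relative of Tlr7, was at 2.02, 0.98, 1.67 and 0.78 CPM in WT chow, 14.7, 17.1 and 9.75 in WT CDAHFD, 3.94 and 5.46 in KO chow and 9.82, 6.58 and 12.4 in KO CDAHFD. KO chow lay between WT chow and both CDAHFD groups without overlap. Tlr8 rose 10.1-fold in WT CDAHFD (log2 3.34 ± 0.32, adjusted p = 3.2e-06, edgeR), 3.44-fold in KO chow (1.78 ± 0.35, adjusted p = 0.0016) and 7.02-fold in KO CDAHFD (2.81 ± 0.32, adjusted p = 1.2e-05). It was 2.95-fold lower in KO chow than in WT CDAHFD (−1.56 ± 0.37, adjusted p = 0.029).

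Tlr3 (ENSMUSG00000031639, chr8:45395665-45411080, minus strand), which signals through the adaptor Ticam1 rather than Myd88, changed least among the genes called higher. It was at 9.71, 7.11, 6.70 and 5.09 CPM in WT chow, 10.9, 13.03 and 12.4 in WT CDAHFD, 11.2 and 10.4 in KO chow and 11.5, 10.8 and 13.03 in KO CDAHFD. WT chow replicate 1 came close to the other groups without reaching them. Tlr3 was 1.69-fold higher in WT CDAHFD (log2 0.76 ± 0.18, adjusted p = 0.0034, edgeR) and 1.64-fold higher in KO CDAHFD (0.72 ± 0.18, adjusted p = 0.0047). In KO chow it was 1.51-fold higher (0.59 ± 0.20, adjusted p = 0.033). That call was lost without either KO chow library or without any 1 of WT chow replicates 2, 3 and 4, with adjusted p from 0.057 to 0.17.

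Cd14 (ENSMUSG00000051439, on chromosome 18), the lipopolysaccharide co-receptor of macrophages, differed most from WT chow among the 10 genes. WT chow had 4.46, 2.23, 3.30 and 2.25 CPM, WT CDAHFD 48.4, 45.7 and 34.2, KO chow 22.0 and 12.1, and KO CDAHFD 29.96, 33.1 and 23.6. Every group was separate from WT chow, and KO chow lay below both CDAHFD groups. Cd14 rose 13.9-fold in WT CDAHFD (log2 3.80 ± 0.27, adjusted p = 2.3e-07, edgeR), 9.42-fold in KO CDAHFD (3.24 ± 0.27, adjusted p = 7.1e-07) and 5.56-fold in KO chow (2.48 ± 0.28, adjusted p = 2.4e-05). In KO chow it was 2.51-fold lower than in WT CDAHFD (−1.33 ± 0.30, adjusted p = 0.024).

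Ly96 (ENSMUSG00000025779, chr1:16688051-16709611, plus strand), the other co-receptor of Tlr4, did not pass in any comparison. It was at 4.23, 4.25, 2.701 and 3.58 CPM in WT chow, 4.73, 6.06 and 5.03 in WT CDAHFD, 5.93 and 4.87 in KO chow and 5.16, 6.79 and 3.97 in KO CDAHFD. WT CDAHFD and KO chow lay just above WT chow, and KO CDAHFD overlapped with it. Differences from WT chow on the log2 scale were 0.52 ± 0.21 for both WT CDAHFD (adjusted p = 0.061, edgeR) and KO CDAHFD (adjusted p = 0.057), and 0.55 ± 0.24 for KO chow (adjusted p = 0.089). Of 6 other settings, WT CDAHFD passed in 4 and KO CDAHFD in 5, such as with RLE size factors in place of TMM (0.55, adjusted p = 0.044, and 0.56, adjusted p = 0.042) and by DESeq2 (0.56 in both). Both also passed without WT chow replicate 1 (0.61, adjusted p = 0.041, and 0.62, adjusted p = 0.038), and KO chow passed with the clock score as a covariate (0.51, adjusted p = 0.038) and by library size alone (0.95).

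Myd88 (ENSMUSG00000032508, chr9:119335934-119341411, minus strand), the shared adaptor, showed no call. It was at 26.5, 16.1, 19.9 and 19.5 CPM in WT chow, 22.4, 21.1 and 19.8 in WT CDAHFD, 25.1 and 20.8 in KO chow and 20.2, 22.2 and 18.9 in KO CDAHFD. The groups overlapped throughout. Against WT chow its log2 difference was 0.16 ± 0.17 with KO chow, 0.041 ± 0.15 with WT CDAHFD and −0.0060 ± 0.15 with KO CDAHFD, and adjusted p were 0.49, 0.84 and 0.98 (edgeR). Scaled by library size alone, it passed against all 3 at 0.56, 0.59 and 0.59, but the median of all genes then moved as well, to 0.40, 0.51 and 0.57. Under that scaling 86.0%, 88.6% and 89.9% of all calls were higher, against 56.4%, 51.0% and 51.4% with TMM. Myd88 shares 290 exon bases (11.3% of its exon length) with Acaa1a, a peroxisomal thiolase gene on the opposite strand, whose counts were 6.58 to 13.6 times those of Myd88. The libraries keep no strand, so reads of those bases cannot be told apart. Acaa1a ran from 223 to 340 CPM in WT chow, with 145 and 156 for KO chow (log2 −0.87, adjusted p = 0.0014, edgeR), and its part in the counts of Myd88 was not tested.

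**Figure D3:**
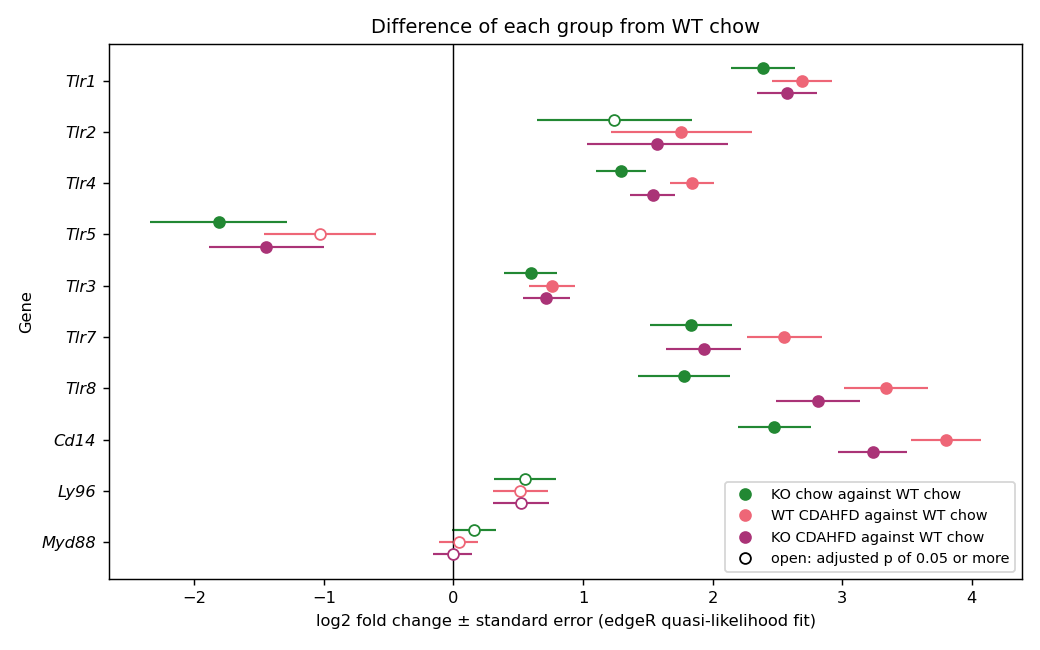
Log2 fold change of the 10 genes against WT chow, with its standard error as a bar, for each of the other 3 groups. Filled points passed an adjusted p of 0.05 and open points did not. Tlr1, Tlr3, Tlr4, Tlr7, Tlr8 and Cd14 are filled and above 0 in all 3 comparisons, Tlr5 lies below 0, and Ly96 and Myd88 are open.

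Levels were compared between genes per kilobase of exon, as CPM per kilobase. In WT chow Myd88 stood first at 7.97 ± 1.69 (SD, n = 4), with no overlap with Ly96, the next gene at 3.61 ± 0.71. Tlr2, Tlr5, Cd14 and Tlr3 followed at 2.44 ± 2.83, 1.91 ± 1.01, 1.77 ± 0.61 and 1.37 ± 0.37, and each overlapped with its neighbour in the order. The place of Tlr2 rests on WT chow replicate 1, at 6.67, and without it Tlr2 was at 1.03 ± 0.16 (n = 3), after Tlr3 at 1.21 ± 0.21. Tlr7, Tlr1, Tlr4 and Tlr8 closed the order between 0.52 and 0.38, below every value of Tlr3. In the other 3 groups Cd14 came first, at 24.7 ± 4.3 in WT CDAHFD (n = 3), 9.85 ± 4.05 in KO chow (n = 2) and 16.7 ± 2.8 in KO CDAHFD (n = 3), and only in KO chow did it overlap with the next gene, Myd88. Tlr5 came last in those groups, at 0.94, 0.54 and 0.70, below every library of the next gene, Tlr4. Tlr2 and Myd88 held the 2 places after Cd14 in all of them, at 8.22 and 8.20 in WT CDAHFD.

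**Figure D4:**
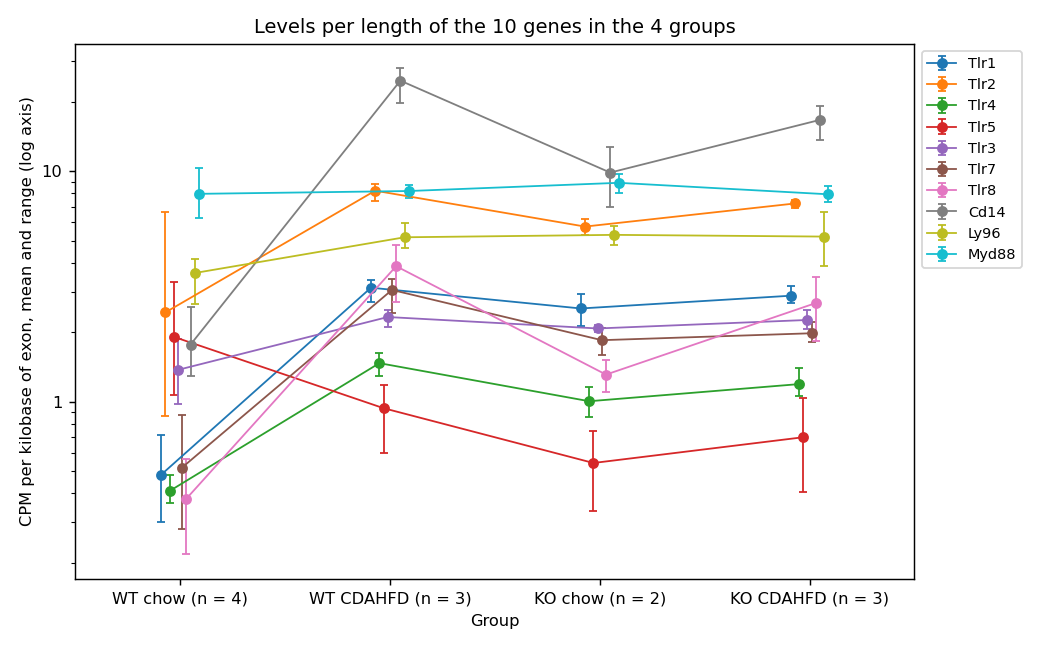
Mean level of each of the 10 genes in CPM per kilobase of exon, on a log axis, in the 4 groups, with bars from the lowest to the highest library. Cd14 moves from 1.77 in WT chow to 24.7 in WT CDAHFD, Myd88 stays between 7.93 and 8.90, and Tlr5 is the lowest gene in the 3 groups other than WT chow.

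The diet and the deletion were also compared with each other and combined. Between KO CDAHFD and WT CDAHFD, edgeR called none of the 10 genes, and 0.357% of all genes tested. At an unadjusted p under 0.05 only Cd14 passed (−0.57 ± 0.26, adjusted p = 0.56), and DESeq2 called 0. Differences on the log2 scale ran from −0.62 (Tlr7) to 0.0082 (Ly96), and each was below WT CDAHFD except that of Ly96. Between KO CDAHFD and KO chow edgeR called none of the 10 either, where 6.19% of all genes were called. Unadjusted, 2 passed, Tlr8 (1.03 ± 0.37) and Cd14 (0.76 ± 0.30), and DESeq2 called 1, Tlr8 (1.07, adjusted p = 0.042).

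Directly between KO chow and WT CDAHFD, 2 of the 10 genes were called, Tlr8 and Cd14, both lower in KO chow, beside 3.42% of all genes called lower. For Tlr8 the call was lost without any 1 of WT CDAHFD replicates 1 and 2 and KO chow replicates 1 and 2, at −1.35 to −1.82 with adjusted p from 0.067 to 0.24. For Cd14 it was lost without WT CDAHFD replicate 1 or 2 or KO chow replicate 2, at −0.96 to −1.28 with adjusted p from 0.077 to 0.12. Without WT chow replicate 1, which is in neither group but enters the shared estimate of the spread, Tlr2 was called as well (−0.53, adjusted p = 0.043), which made 3 genes.

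The interaction of genotype and diet, the difference of KO CDAHFD from KO chow less that of WT CDAHFD from WT chow, was negative and called for 5 of the 10 genes, beside 14.5% of all genes tested. In these genes the diet thus went with a smaller difference in KO than in WT livers. For Cd14 the diet difference was 3.80 in WT and 0.76 in KO livers, and the interaction −3.04 ± 0.39 (adjusted p = 0.00013, edgeR). The interaction was −2.50 ± 0.34 for Tlr1, −2.45 ± 0.43 for Tlr7, −2.31 ± 0.47 for Tlr8 and −1.59 ± 0.26 for Tlr4, with adjusted p from 0.00022 to 0.0036. For Tlr2 it was −1.43 ± 0.83 with all libraries and did not pass (adjusted p = 0.25), and −2.67 without WT chow replicate 1 (adjusted p = 3.7e-06). Tlr3 likewise passed only without that library (−0.82, adjusted p = 0.022, against −0.64 and 0.12 with it) or when scaled by library size alone.

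A list of 72 further genes of the pathway, in 7 roles, was followed in the same fit, and 68 were tested. Il6, Il10, Ifnb1 and Il1rl1 had too few counts. Of these, WT CDAHFD had 36 higher and 5 lower than WT chow, beside 26.1% and 25.0% of all genes tested. KO CDAHFD had 35 and 9, beside 26.9% and 25.4%, and KO chow 33 and 3, beside 22.0% and 17.0%. Without WT chow replicate 1 these counts were 40 and 4, 41 and 6, and 39 and 4. Higher calls over all genes then also rose, from 4522 to 4716, 4674 to 4865 and 3814 to 4072. The median log2 fold change of the 68 was 0.73, 0.61 and 0.55 in turn. By role, receptors, transcription factors and response genes were mostly called higher and kinases mostly not called.

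**Figure D5:**
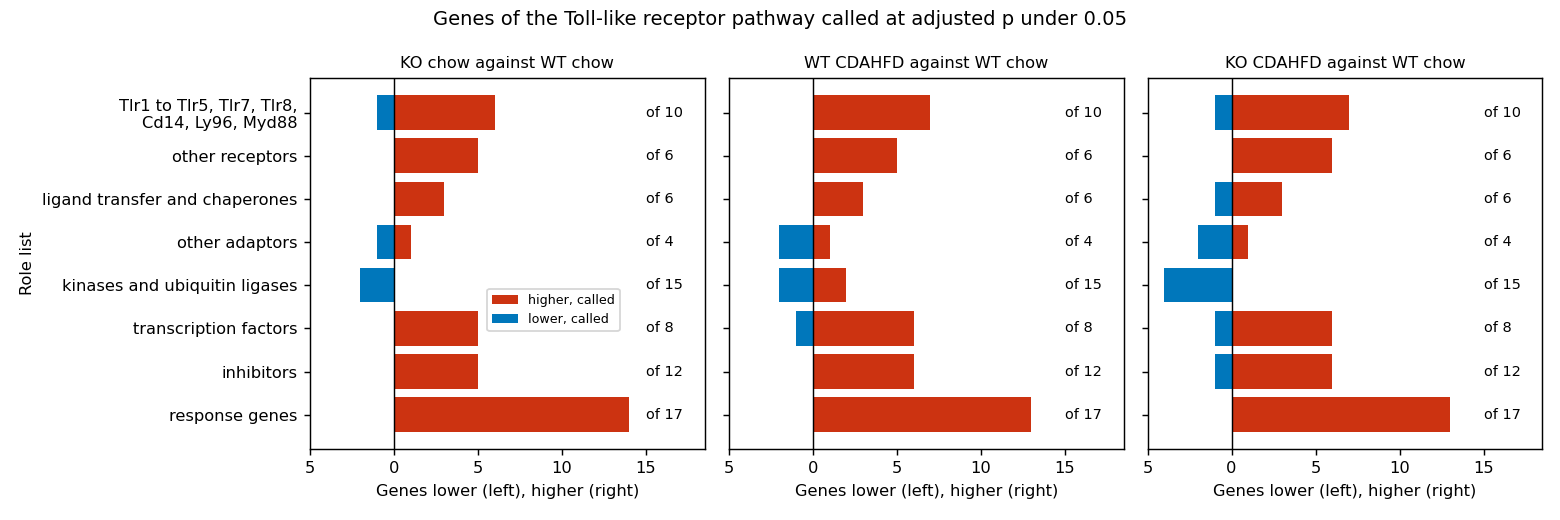
Number of genes called higher (red, to the right of 0) and lower (blue, to the left of 0) against WT chow at an adjusted p under 0.05, for the 10 genes described here and 7 role lists of the pathway, with the number tested at the right. Of 17 response genes 14, 13 and 13 were higher, and of 15 kinases and ubiquitin ligases 0, 2 and 0.

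Of the 6 other receptors, 5 were higher with WT CDAHFD, 6 with KO CDAHFD and 5 with KO chow, beside 26.1%, 26.9% and 22.0% of all genes. Without WT chow replicate 1 the receptors called higher were 4, 5 and 4. Tlr13, a receptor of bacterial ribosomal RNA, was at 2.99, 1.16, 1.63 and 0.92 CPM in WT chow, 35.8, 33.8 and 23.1 in WT CDAHFD, 12.05 and 12.8 in KO chow and 23.5, 21.8 and 27.4 in KO CDAHFD. KO chow thus lay between WT chow and the CDAHFD groups, as for Tlr8 and Cd14, and the difference of KO chow from WT CDAHFD was called (−1.32 ± 0.32, adjusted p = 0.033, edgeR). Against WT chow Tlr13 was 18.4-fold higher in WT CDAHFD and 7.38-fold higher in KO chow. Cd180, a Toll-like receptor homologue of B cells and macrophages, was higher by log2 2.77 ± 0.27 in WT CDAHFD and 1.90 ± 0.30 in KO chow, and the summed B cell markers were between 2.57 and 7.37 CPM in all libraries. Tlr9, the receptor of unmethylated DNA, was higher by 2.85 ± 0.32 and 2.01 ± 0.36 from 0.25 to 0.53 CPM in WT chow. Tlr6, the other partner of Tlr2, was higher by 2.03 ± 0.21 and 1.19 ± 0.23.

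Tlr11 and Tlr12, which sense profilin of protozoa, were less uniform. Tlr11 passed in KO chow (1.46 ± 0.46, adjusted p = 0.025, edgeR), with 1.09 and 1.07 CPM against 0.14 to 0.67, and did not in WT CDAHFD (0.74 ± 0.43). Tlr12 passed in WT CDAHFD (0.89 ± 0.31, adjusted p = 0.028) and did not in KO chow (0.38 ± 0.35). Whether those effects differ between KO chow and WT CDAHFD was tested directly, and neither difference passed (adjusted p = 0.37 and 0.43). Both calls were lost without WT chow replicate 1, at 1.30 (adjusted p = 0.051) for Tlr11 and 0.78 (adjusted p = 0.065) for Tlr12.

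Among 6 genes of ligand transfer and receptor chaperoning, 3 were higher in each comparison with WT chow, where 22.0% to 26.9% of all genes were. Cd36, a scavenger receptor and fatty acid translocase that also serves Tlr2 complexes, was at 17.5 to 29.9 CPM in WT chow, 350 to 493 in WT CDAHFD, 123 and 184 in KO chow and 287 to 379 in KO CDAHFD. It was the only pathway gene called between KO CDAHFD and KO chow (1.11 ± 0.25, adjusted p = 0.022, edgeR) and was lower in KO chow than in WT CDAHFD (−1.51 ± 0.25, adjusted p = 0.0046). The first of these calls was lost without KO chow replicate 1 or without KO CDAHFD replicate 1 or 3. Ly86, the partner of Cd180, was higher by 1.67 ± 0.22 in KO chow and 1.76 ± 0.20 in WT CDAHFD, and Unc93b1, which carries endosomal receptors from the endoplasmic reticulum, by 0.60 ± 0.15 and 1.05 ± 0.13. The chaperones Cnpy3 and Hsp90b1, which fold the receptors, had no call in those groups, with values of −0.39 and −0.24 for Cnpy3 and −0.11 and −0.61 for Hsp90b1, and Hsp90b1 was lower in KO CDAHFD (−0.74 ± 0.28, adjusted p = 0.039), a call lost without WT chow replicate 1 (−0.46, adjusted p = 0.13) and without any 1 of WT chow replicate 2, WT CDAHFD replicates 1 and 3 and KO CDAHFD replicates 1 and 3. Lbp had no call (−0.77 ± 0.41 in KO chow and −0.52 ± 0.36 in WT CDAHFD), and without WT chow replicate 1 its values were −0.17 and 0.093.

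The 4 other adaptors went different ways. Ticam2, which couples Tlr4 to Ticam1, was higher by 2.46 ± 0.22 with WT CDAHFD, 2.31 with KO CDAHFD and 1.75 ± 0.25 with KO chow, from 0.47 to 0.70 CPM in WT chow. It shares 838 exon bases with Tmed7 on the same strand, whose counts were 45.1 to 302 times as many, so that its counts are uncertain. Ticam1, the adaptor of Tlr3, had no call, at 15.6 to 22.9 CPM in all libraries. Tirap, which bridges Myd88 to Tlr2 and Tlr4, was lower, at −0.82 ± 0.14 with KO CDAHFD, −0.73 ± 0.16 with KO chow and −0.42 ± 0.14 with WT CDAHFD (adjusted p from 0.00029 to 0.021, edgeR), and shares 39 exon bases with Srpr, whose counts were 9.13 to 12.01 times as many. Sarm1, known as a negative adaptor and NAD hydrolase, was lower in WT CDAHFD (−2.25 ± 0.55) and KO CDAHFD (−1.75 ± 0.54) at 0.38 to 1.98 CPM in WT chow, and did not pass in KO chow (−0.72 ± 0.58). Without WT chow replicate 1 these were −1.64, −1.13 and −0.12, and the KO CDAHFD call of Sarm1 (adjusted p = 0.059) and the WT CDAHFD call of Tirap (−0.36, adjusted p = 0.053) were lost.

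Of 15 signalling kinases and ubiquitin ligases, 4 were lower in KO CDAHFD, 2 were lower and 2 higher in WT CDAHFD, and 2 were lower in KO chow. The lower counts in KO CDAHFD and KO chow were near the 25.4% and 17.0% of all genes. In WT CDAHFD 25.0% of all genes were called lower and 26.1% higher. Chuk, the IKKα kinase, was lower in both single conditions (−0.65 ± 0.17 and −0.68 ± 0.15), and Irak2 was lower in KO chow (−0.59 ± 0.17). Ikbke, an inducible IKK-related kinase, was higher in WT CDAHFD (0.80 ± 0.31, adjusted p = 0.045, edgeR) and not called in KO chow (0.36 ± 0.35). Its call was lost without any 1 library other than WT chow replicate 1, and without that library KO chow passed too (0.76, adjusted p = 0.032). Of 8 transcription factors, 5 were higher in KO chow and 6 in WT CDAHFD, beside 22.0% and 26.1% of all genes. Relb was at 9.28, 1.83, 3.23 and 2.11 CPM in WT chow and at 15.7 to 24.3 in the other libraries, and was higher by 2.08 ± 0.44 in KO chow and 2.50 ± 0.41 in WT CDAHFD. Nfkb2 was higher by 1.48 ± 0.45 and 1.63 ± 0.41, and Irf7, which drives interferon genes downstream of Tlr7 and Tlr9, by 0.64 and 0.73. For Relb and Nfkb2 WT chow replicate 1 was again the highest of its group, and without it Relb was at 2.87 and 3.30 and Nfkb2 at 2.28 and 2.44.

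Of 12 inhibitors, 5 were higher in KO chow and 6 in WT CDAHFD, beside 22.0% and 26.1% of all genes. Without WT chow replicate 1 the inhibitors called higher were 7 in each. Tnip3, an A20-binding protein, rose from 0.046 to 0.16 CPM in WT chow to 2.71 to 4.12 in WT CDAHFD and 1.25 and 1.29 in KO chow. Tnfaip3, the A20 protein itself, was higher by 2.65 ± 0.22 in KO chow and 3.03 ± 0.21 in WT CDAHFD, and Tnip1 by 1.18 ± 0.17 and 1.93 ± 0.16. Nfkbie, an inhibitor that retains NF-κB in the cytosol, was higher by 1.32 ± 0.25 and 1.93 ± 0.22. Tnip3 and Tnip1 were lower in KO chow than in WT CDAHFD (−1.45 ± 0.28 and −0.75 ± 0.19, adjusted p = 0.012 and 0.036, edgeR). With Tlr13 and Cd36 these were the 4 pathway genes called between those groups. Their number was 7 without WT chow replicate 1, 1 without WT CDAHFD replicate 1 or 2, 2 without KO chow replicate 2 or KO CDAHFD replicate 1, and 0 without KO chow replicate 1, and DESeq2 called 11.

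Response genes had the largest median of the 7 role lists. Of 17, 13 were higher in WT CDAHFD, 13 in KO CDAHFD and 14 in KO chow, beside 26.1%, 26.9% and 22.0% of all genes. The median log2 fold changes were 3.42 (WT CDAHFD), 3.02 (KO CDAHFD) and 2.95 (KO chow). Il1rn, the interleukin-1 receptor antagonist, was at 1.28 to 4.08 CPM in WT chow, 35.9 to 47.5 in WT CDAHFD, 32.6 and 36.4 in KO chow and 38.7 to 46.8 in KO CDAHFD. Ccl4, a chemokine of activated macrophages, was at 0 to 0.27 CPM in WT chow and at 1.72 to 2.93 in all others. Il12b, a subunit of interleukin-12, had no count in WT chow, which allows up to 3 counts per library, or 0.112 CPM. The mean of KO chow, 0.58 CPM, was 5.13 times that limit. On the diet the ratio was 3.75 for WT livers (mean 0.42 CPM) and 4.90 for KO livers (mean 0.55 CPM). These ratios bound the WT chow level only and take the other means as exact. Without KO CDAHFD replicate 3 the log2 difference of Il12b between KO CDAHFD and KO chow went from −0.058 to −0.81, and neither value passed. Between KO chow and WT CDAHFD, Il1rn (−0.24 ± 0.28) and Ccl4 (−0.41 ± 0.41) did not pass. Called in KO chow too were Tnf, Ccl2, Ccl3, Ccl5, Cxcl2, Cxcl10, Ptgs2, Nos2, Icam1, Il1b and Il1a, whereas Cxcl1 (0.59), Ifit1 and Saa3 (0.70) were not. Without WT chow replicate 1, at 34.9 CPM of Cxcl1 against 3.77 to 14.2 in the other 3, Cxcl1 (1.54, adjusted p = 0.019) and Saa3 (1.90, adjusted p = 0.00055) were called in KO chow as well.

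With 1 library left out, more KO chow calls of the pathway genes named here were lost. Those of Chuk, Irak2, Icam1 and Tlr11 were lost without either KO chow library, those of Nfkb2, Irf7 and Unc93b1 without KO chow replicate 1, and that of Il1a without KO chow replicate 2, with adjusted p from 0.053 to 0.36. The call of Nfkb2 was also lost without WT chow replicate 2 (1.34, adjusted p = 0.052).

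The interaction was negative and called for 27 of the 68 pathway genes, of which 12 were response genes and 4 other receptors, beside 14.5% of all genes. Without WT chow replicate 1 it was called for 33, while interaction calls over all genes, in either direction, rose from 4011 to 4630. Between KO CDAHFD and WT CDAHFD, where 0.357% of all genes were called, edgeR called 0 of the 68, with 4 at an unadjusted p under 0.05, and DESeq2 called 0.

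General and recruited macrophage markers were higher in the same groups as the receptors, and Kupffer cell markers were not in all of them. Of all genes, 22.0% to 26.9% were called higher and 17.0% to 25.4% lower in these comparisons with WT chow. All 7 general macrophage markers were higher in WT CDAHFD and 6 of 7 in KO chow and KO CDAHFD, and their summed level was 204 to 358 CPM in WT chow, 765 to 889 in WT CDAHFD, 682 and 692 in KO chow and 693 to 834 in KO CDAHFD. Markers of recruited monocytes and lipid-associated macrophages were all 8 higher in each comparison, with sums of 98.6 to 206, 1751 to 2525, 593 and 741, and 2061 to 2466 CPM. KO chow lay between WT chow and the CDAHFD groups in that sum. Of its 8 genes, 5 were called lower in KO chow than in WT CDAHFD, beside 3.42% of all genes. Kupffer cell markers, of which 3 of 5 were higher in KO chow and 1 was higher and 1 lower in each CDAHFD group, had another order, with 232 to 398 CPM in WT chow, 403 to 506 in WT CDAHFD, 692 and 912 in KO chow and 213 to 555 in KO CDAHFD. In KO CDAHFD replicate 3 Clec4f, 1 of the 5 Kupffer markers, was at 34.1 CPM, against 130 and 140 in the other 2. The other Kupffer markers are not given by library here. That library also had the lowest clock score, −3.19. In it Tlr1, Tlr2, Cd14, Ly96 and Myd88 had their lowest KO CDAHFD value and Tlr3, Tlr4, Tlr5 and Tlr8 their highest. With 3 libraries a gene is often lowest or highest in any given 1, and no count over all genes was made. None of the markers of these 3 lists was at 0 in a group. The part of macrophage number in the levels of the 10 genes was not tested.

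Neutrophil markers summed to 2.86 to 14.6 CPM in WT chow, where Ly6g had no count, and to 22.0 to 32.9 in the other groups. Of 5 tested neutrophil markers, 4 were higher in KO chow and in WT CDAHFD, and 5 in KO CDAHFD. Dendritic cell markers summed to 9.82 to 12.4 CPM in WT chow and 17.0 to 24.5 elsewhere, and T and NK cell markers to 2.25 to 3.20 and 5.63 to 8.68. Of 6 dendritic cell markers 5, 4 and 5 were higher with KO chow, with WT CDAHFD and with KO CDAHFD, and of 7 T and NK cell markers also 5, 4 and 5. Stellate cell and fibroblast markers, at 226 to 301 CPM in WT chow, were at 1195 to 1979 in the other groups, and cholangiocyte markers at 6.87 to 20.4 and 24.4 to 85.4. Of the 6 stellate markers 5 were higher in each comparison, and of the 4 cholangiocyte markers 3, 4 and 4. Over all genes tested, 22.0%, 26.1% and 26.9% were called higher with KO chow, WT CDAHFD and KO CDAHFD. Sinusoidal endothelial markers were at 181 to 272 CPM in WT chow and 117 to 237 elsewhere. In each CDAHFD group 3 of 6 were lower, beside 25.0% (WT) and 25.4% (KO) of all genes. Hepatocyte markers summed to 80266 to 99601 CPM in WT chow, 39376 to 53851 in the CDAHFD groups and 69207 and 79335 in KO chow. Of these, 5 of 6 were lower in KO chow, where 17.0% of all genes were, and 6 of 6 in both CDAHFD groups.

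Likeness of pattern was read as the Pearson r of log2 CPM over the 12 libraries, with the 2 closest of the 17358 genes named for each. The libraries of a group share its condition, so that r over 12 libraries is a description. Tlr2 was closest to Icam1 (r = 0.986) and Nfkb2 (0.978), and both had their highest WT chow value in replicate 1, at 39.6 CPM for Icam1 against 10.1 to 15.2. Tlr8 was closest to Hip1 (0.996) and Adgre5 (0.991), Tlr7 to Fgr (0.992) and Msr1 (0.991), and Cd14 to Ncf1 (0.991) and Ctss (0.990). Tlr1 followed Nrg1 (0.994) and Lpl (0.992), Tlr4 followed Iqgap1 (0.992) and Rab8b (0.991), and Tlr3 followed Trim30a and Shisa2 (0.969 each). Tlr5, with its opposite pattern, was closest to Slc22a23 (0.977) and Acvr2b (0.967). Ly96 and Myd88 had lower best values, with Wdyhv1 (0.941) and Tmem263 (0.933) for Ly96 and Hp (0.934) and Ppp2r5b (0.893) for Myd88. Hp, the acute phase protein haptoglobin, was also highest in WT chow replicate 1, at 7639 CPM where the other 3 had 2143 to 3981.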

How the data were processed

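Bulk liver RNA of 12 mice was poly-A selected and sequenced without strand information. Per the labels and the study's methods, the authors checked reads with FastQC 0.11.5, aligned them to GRCm38 with STAR 2.7.3a and deposited raw counts of reads per Ensembl gene, without normalization. The counting program and annotation release are not given in the sources used here. Groups and replicate numbers were taken from the sample titles and genotype and treatment fields. The study states 3 mice per treatment group, and the libraries number 4, 3, 2 and 3. KO chow replicate 2 carries the number 3 in its label, and the study's histology lists more KO chow than KO CDAHFD mice, the reverse of the libraries, so that the KO groups rest on the labels alone. The column labels continue their numbers from chow to CDAHFD within each genotype and do not say whether these numbers are animals. The p-values measure the spread between these libraries. Where a library had no count of a gene, up to 3 counts remain possible from counting error alone.

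Genes were kept with edgeR's filterByExpr, scaled with TMM and fitted with a mean for each group over the 12 libraries (edgeR 4.0.16, glmQLFit and glmQLFTest, in R 4.3.3 with limma 3.58.1). Adjusted p are Benjamini-Hochberg values over 17358 genes, called under 0.05. The standard error is the size of the log2 fold change over the square root of F. Symbols and positions come from GENCODE M21, which held 52081 of the 55357 identifiers. For likeness, log2 CPM had 2 as prior count. The main edgeR fit, with TMM and the filter, was also run on simulated counts, and the other steps were not. Alternatives were RLE size factors, library size only, no low-count filter, a replicate block, a clock gene score as covariate, DESeq2 1.42.0 and each library left out. Tables and figures used pandas 2.3.3 and matplotlib 3.10.9 under Python 3.11.15.

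The 10 genes, the pathway and marker lists and the tests were chosen with earlier results of these data known. By the rule for named genes, the text gives all 10 genes, the other receptors, adaptors, ligand-transfer genes and chaperones, of each other role the 3 genes with the largest change in KO chow or WT CDAHFD against WT chow among those called (4 inhibitors, since Tnip1 and Nfkbie tie), those called in the other comparisons, and 2 like genes for each of the 10. Response and NF-κB genes beyond that rule (Saa3, Irak3, Rel, Nfkbia, Cxcl1, Hp, Icam1) and the promoter motifs were chosen after their values were seen. For genes named only through the interaction, values are in the closing section.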

Additional observations from a re-analysis of the deposited data

Results flagged for a closer look

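In WT chow, 5 of the 78 genes followed had 1 library far from the other 3, by Dixon's test at 95%, which chance alone marks in about 1 group in 20. The library was replicate 1 each time. Tlr2 was at 20.1 CPM there and at 2.61 to 3.60 in the other 3, Lbp at 333 against 106 to 115, Nfkb2 at 37.6 against 8.03 to 11.1, Irak3 at 3.61 against 1.01 to 1.32, and Saa3 at 34.1 against 4.19 to 6.90. Replicate 1 held the highest WT chow value of 42 of the 68 pathway genes tested. Neither this count nor that of Dixon's test was made over all genes tested. The other groups, with 2 or 3 libraries, could not be examined in this way.

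The effect of the diet differed between WT and KO livers, by edgeR's test of the interaction, for 5 of the 10 genes: Tlr1 (−2.50), Tlr4 (−1.59), Tlr7 (−2.45), Tlr8 (−2.31) and Cd14 (−3.04). It differed for 27 pathway genes, always with the smaller value in KO livers. Among receptors and their partners the values were −3.24 for Tlr13, −1.28 for Tlr6, −2.31 for Tlr9, −2.10 for Cd180, −3.09 for Cd36, −1.61 for Ly86, −0.66 for Unc93b1 and −1.90 for Ticam2. Among transcription factors and inhibitors they were −2.18 for Relb, −0.62 for Nfkb1, −0.89 for Irf7, −3.94 for Tnip3, −3.12 for Tnfaip3, −1.41 for Tnip1 and −1.43 for Nfkbie. Among response genes they were −2.94 for Tnf, −3.76 for Il1rn, −1.51 for Il1b, −3.51 for Ptgs2, −3.36 for Cxcl2, −2.76 for Cxcl10, −3.85 for Ccl2, −3.18 for Ccl3, −4.51 for Ccl4, −2.14 for Ccl5, −3.96 for Nos2 and −7.06 for Il12b. The last value depends on the prior count, since Il12b had no count in WT chow. These values rest on 2 KO chow libraries.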

How the results depend on the processing

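Of 1253 alternatives for the 70 log2 fold changes of the 10 genes, 1149 kept the direction and the side of the threshold, 24 lost the call, 34 gained it and 46 changed sign, the last in no difference that was called. The causes of the changes below were not tested. Where 1 of the 2 KO chow libraries was left out, the other was assumed to vary like the other groups. With each library left out in turn, the called genes of the 10 numbered 5 to 8 for KO chow against WT chow, 7 to 9 for WT CDAHFD, 6 to 9 for KO CDAHFD, 5 to 7 for the interaction and 0 to 3 for KO chow against WT CDAHFD. Between KO CDAHFD and KO chow, where edgeR called none, 2 of the 10 were called without the low-count filter, 1 with the clock covariate and 1 by DESeq2. Pathway genes called there numbered 1, but 2 with RLE factors, 6 by library size only, 2 without the filter, 2 with the replicate block, 5 with the clock covariate, 5 by DESeq2 and 0 to 5 with a library left out. Between KO chow and WT CDAHFD they numbered 4, but 8 by library size only, 8 with the clock covariate, 11 by DESeq2 and 0 to 7 with a library left out. Over all genes, calls between the CDAHFD groups numbered 62, but 215 without the filter, 181 with the clock covariate, 240 by DESeq2 and 26 to 75 with a library left out. Between KO CDAHFD and KO chow they numbered 1075, but 640 with the replicate block, 1885 by DESeq2 and 233 (without KO chow replicate 1) to 1437 (without WT chow replicate 1) with a library left out, and 60.7% were higher, but 90.0% by library size only. Between KO chow and WT CDAHFD they numbered 1063, but 2529 with the clock covariate, 2062 by DESeq2 and 260 to 1469 without those same libraries, with 44.2% higher, but 19.1% by library size only. For the interaction that scaling moved the share from 37.3% to 13.7%. DESeq2 gave no adjusted p for Tlr2, which was left out of its counts. Deviations from the group means correlated at −0.242 to 0.266 (median −0.0186) over 15 pairs of libraries with the same replicate number. Over 38 pairs with different numbers they correlated at −0.266 to 0.245. Deviations sum to 0 within a group, so that these correlations are tied to each other and cannot exclude a pairing. The replicate numbers of the titles restart in each group, while those of the column labels continue across the diets of a genotype. With a replicate block, 5 of the 10 genes were called for KO chow against WT chow, without Tlr3 (0.47, adjusted p = 0.098, edgeR) and Tlr5 (−1.32, adjusted p = 0.052), 7 for WT CDAHFD and 8 for KO CDAHFD. Signs changed as follows. For KO CDAHFD against WT CDAHFD, the clock covariate gave 0.0051 for Tlr1, 0.27 for Tlr2, 0.061 for Tlr3 and 0.026 for Myd88, library size only gave 0.012 for Tlr3 and 0.00087 for Myd88, and the replicate block gave −0.019 for Ly96. Leaving out a library gave −0.12 to 0.017 for Tlr3, −0.21 to 0.18 for Ly96 and −0.11 to 0.0074 for Myd88. For KO CDAHFD against KO chow, Ly96 was at 0.0056 with RLE factors, 0.17 by library size only, 0.085 with the replicate block, 0.086 with the clock covariate and 0.0030 by DESeq2, Tlr5 at −0.042 with the replicate block and Myd88 at 0.037 by library size only. Leaving out a library gave −0.010 to 0.43 for Tlr1, −0.068 to 1.06 for Tlr5, −0.065 to 0.31 for Tlr7 and −0.24 to 0.15 for Ly96. For KO chow against WT CDAHFD, library size only gave −0.12 for Ly96 and −0.036 for Myd88, the replicate block gave −0.10 for Ly96, and leaving out a library gave −0.12 to 0.17 for Ly96 and −0.032 to 0.25 for Myd88. Against WT chow, Myd88 in WT CDAHFD was at −0.0049 with the clock covariate and −0.036 to 0.21 with a library left out. In KO CDAHFD it was at 0.034 with RLE factors, 0.59 by library size only, 0.050 without the filter, 0.021 with the clock covariate, 0.036 by DESeq2 and −0.074 to 0.18 with a library left out.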
